A study of Mus musculus with 19 samples.

Results

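The genes described here are 42 genes of ribosome biogenesis, nucleotide synthesis, polyamine synthesis and linked steps of growth, a class known as targets of the transcription factor Myc. They were chosen by gene symbol from a fixed list, and each of the 42 symbols matched exactly 1 of the 55421 genes in the count table. RNA came from livers of adult male C57BL/6 mice. Mutants carry a transgene for the c-Jun~Fra-2 dimer, a pair of AP-1 transcription factor subunits, and controls are their littermates. Doxycycline, whose removal starts the transgene, was taken away at 3 weeks of age from mutants and controls alike. Livers were taken 2 months later (3 mutants, 6 controls) or 9 months later (3 mutants, 3 controls). At 9 months each mutant gave 1 piece of liver without a tumour visible to the eye, called tumour-free below, and 1 tumour, except that mutant 1 gave 2 tumours. The labels give the genotype only as mutant or control, and the promoter that drives the transgene is not given in the sources used here. Fosl2, the gene of Fra-2, lay between 405.4 and 937.1 CPM (counts relative to library size, scaled to a common total) in the 10 mutant and tumour libraries and between 8.38 and 19.9 CPM in the 9 control libraries. Jun, the gene of c-Jun, lay between 334.7 and 785.6 CPM in those mutant and tumour libraries. Control 1 of 9 months had 387.4 CPM of Jun, above the lowest tumour library, and the other controls 10.5 to 40.5 CPM.

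A ribosome is built in the nucleolus. RNA polymerase I copies the ribosomal RNA precursor, small nucleolar ribonucleoproteins modify it, and many assembly factors trim and fold it into the small and the large subunit. The work consumes purine and pyrimidine nucleotides and polyamines, and Myc, a transcription factor that binds the E-box CACGTG with its partner Max, is known to raise many of these genes in growing cells, regenerating liver and liver tumours.

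The 19 libraries come from 15 animals. Counts of the 2 tumours of mutant 1 were summed for tests and their levels averaged for means, so n counts animals in each comparison of groups. Total counts ran from 14.3 M to 22.1 M per library, and every member had at least 39 counts in every library. The 2-month and the 9-month libraries went through separate sequencing runs, which therefore cannot be told apart from time. The labels call the tissue mostly hepatocytes, and all 6 hepatocyte markers examined passed the expression filter, but their summed level was 105800 to 131100 CPM in controls of 2 months against 36900 to 49280 CPM in mutants, and 111400 to 117100 CPM in controls of 9 months against 39630 to 41680 CPM in tumour-free tissue and 43500 to 69670 CPM in tumours. Most of that sum is albumin (Alb, 101400 ± 7560 CPM in controls and 30740 ± 4830 CPM in mutants of 2 months). By the test 3 of 6 markers fell at 2 months (Alb, Apoa1 and Ttr), 3 in tumour-free tissue (Alb, Apoa1 and Asgr1) and 2 in tumours (Apoa1 and Ttr), while Cps1 and Hnf4a did not pass and had log2 changes of 0.29 and 0.17 at 2 months. In bulk tissue fewer cells of a type and less RNA per cell cannot be told apart. One control library stands apart: control 1 of 9 months had 4114 CPM summed over 15 immediate early genes, which respond within minutes to stress or handling, against 310.2 and 196 CPM in the other 9-month controls. Tumour-free tissue of mutant 1 (1174 CPM) and its 2 tumours (1852 and 1498 CPM) were also high, so all 4 libraries from 9-month animals numbered 1 were high.

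CPM values were scaled by TMM, which sets the libraries level over the bulk of genes. Scaling by library size alone moved the median log2 change of all genes from 0.01 to 0.29 in mutants of 2 months, from -0.01 to 0.43 in tumour-free tissue and from 0.015 to 0.475 in tumours. All directions below are therefore relative to the bulk of genes. The median member lay 0.20 log2 units below the median gene at 2 months under both scalings (-0.199 and -0.201). In tumour-free tissue it lay 0.21 units below (-0.207 and -0.208). A change of scaling shifts all genes by about the same amount, so this gap could hardly move and is no check of the scaling. Counts of members called higher or lower do depend on it.

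In all, 6 members carry CACGTG in the 250 bases before a RefSeq transcription start. The 30 bases around each are shown because this is the sequence Myc and Max bind, with the E-box in capitals; each is read 5′ to 3′ on the gene's strand, from RefSeq promoters of build GRCm38.p6. Nme1 has a pair of annotated starts, each with an E-box of its own.
Paics (chr5:76951087-76951116, plus strand): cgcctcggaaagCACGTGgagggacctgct
Impdh2 (chr9:108560314-108560343, plus strand): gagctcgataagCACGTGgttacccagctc
Nme1, one start (chr11:93968037-93968066, minus strand): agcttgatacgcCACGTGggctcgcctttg
Nme1, other start (chr11:93968273-93968302, minus strand): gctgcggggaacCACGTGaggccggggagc
Imp4 (chr1:34439696-34439725, plus strand): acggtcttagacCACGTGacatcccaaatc
Nop2 (chr6:125131811-125131840, plus strand): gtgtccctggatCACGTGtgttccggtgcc
Prmt3 (chr7:49778333-49778362, plus strand): gccccctacgccCACGTGacccggaagcgc
The E-box begins 203 bases before the start in Paics, 121 in Imp4, 110 in Impdh2, 60 in Nop2, 29 and 18 in Nme1, and 13 in Prmt3. Of 36 members with a RefSeq promoter in the table, 6 (16.7%, 95% Wilson interval 7.87 to 31.9%) held CACGTG in that window, against 6.86% of 27025 genes. The motif reads the same on both strands. In a window reaching 50 bases past the start the shares were 10 of 36 members (27.8%, 15.8 to 44%) and 8.09% of genes. The AP-1 motif TGANTCA, searched on both strands, was in the 250 bases of 1 of the 36 members (2.78%) and of 7.82% of genes. Neither motif contains the other, and a match is a description of letters only. Among the 6 E-box members, Paics and Nme1 were lower in mutants of 2 months and the other 4 did not pass the test there, with log2 changes from -0.33 (Impdh2) to 0.13 (Imp4).

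At 2 months most members that moved were lower in mutants. Mutants were compared with controls to see which transcripts differ with the transgene soon after its start (n = 3 and 6; edgeR's quasi-likelihood test, Benjamini-Hochberg adjusted p under 0.05 over all 13773 genes tested). Of 42 members 11 fell (26.2%), against 20.4% of all genes tested, and 1 rose (2.38%), against 22.3% of all genes. The median log2 change was -0.19 over members and 0.01 over all genes, and single members ran from -1.64 to 0.63. The share of members that fell was near that of all genes, while the share that rose was far below it; no test was made of that difference. In tumour-free tissue of 9 months (n = 3 and 3) 8 members fell (19%, against 16.8% of all genes) and 1 rose (2.38%, against 18.1%), with a median of -0.22 over members and -0.01 over all genes. In tumours (n = 3 and 3, with the same 9-month controls) 3 members fell (7.14%, against 11.3% of all genes) and none rose, against 13.8% of all genes, with medians of -0.03 and 0.015. For that count of 0 rises, edgeR gave 4 members higher and 7 lower at an unadjusted p under 0.05. Together they are 26.2% of members, against 39.7% of all genes. With adjustment, limma voom called none higher and DESeq2 called 1, against 11.9% and 16.9% of all genes. Scaled by library size alone, 9 members were higher and 1 lower at 2 months, and 14 higher and 1 lower both in tumour-free tissue and in tumours. Single libraries weigh on these counts. In tumour-free tissue 5 members fell without control 1 and 3 without tumour-free library 2 or 3, and none rose without control 2, control 3 or tumour-free library 1 or 2, while 2 rose without control 1. In tumours none fell and 1 rose without control 1, 1 fell without control 3, and 1 rose without the tumour of mutant 2. At 2 months none rose without mutant 2 or mutant 3.

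**Figure D1:**
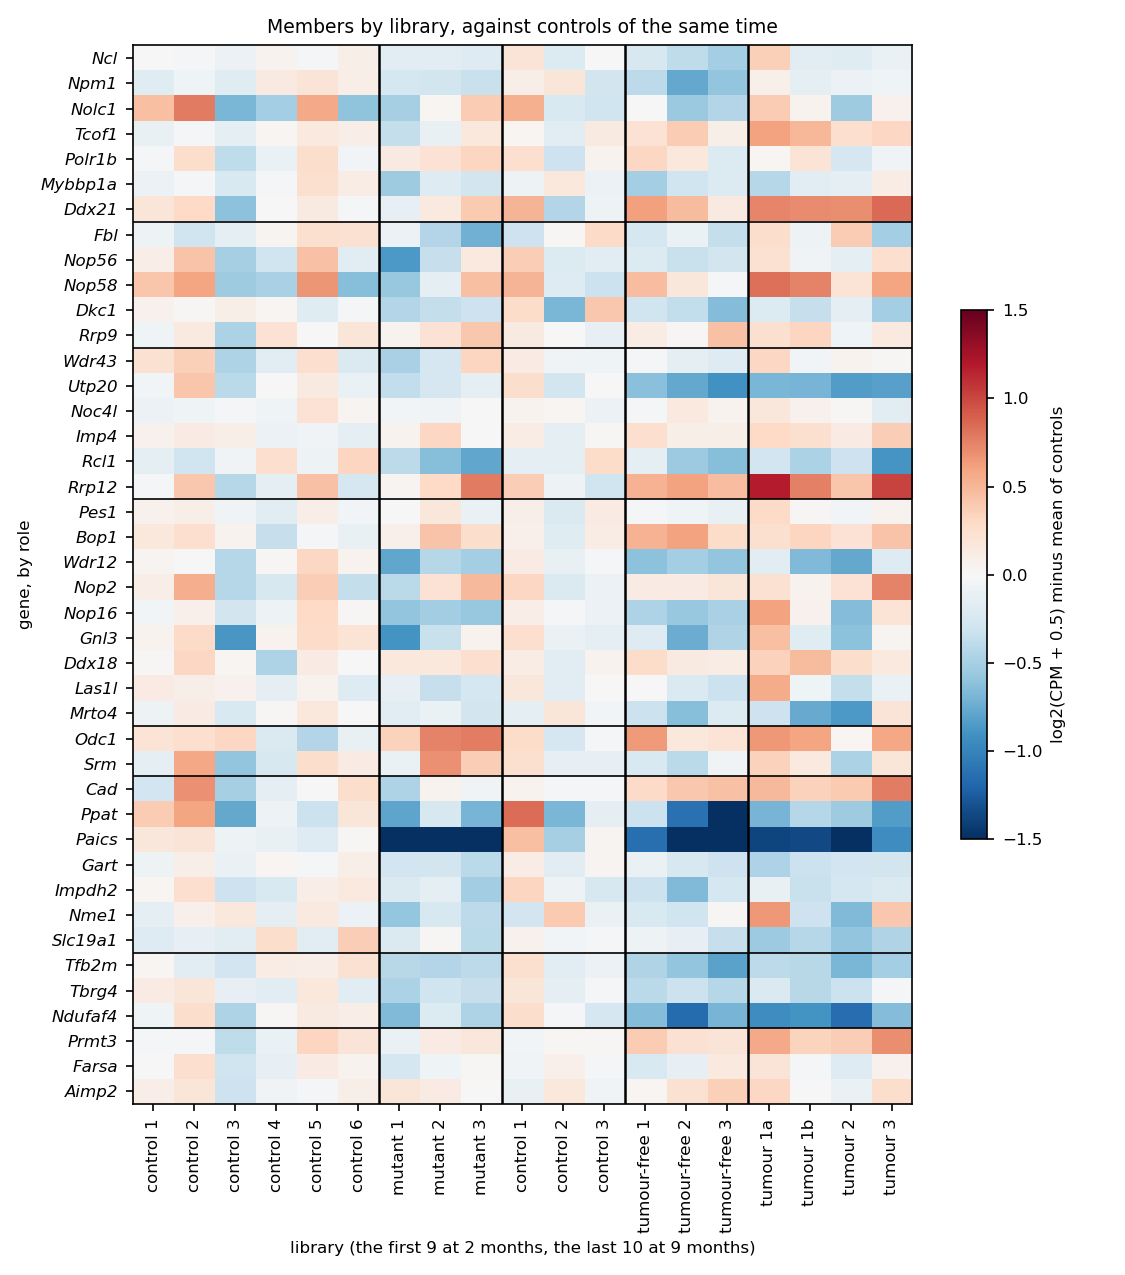
Level of each of the 42 members in each of the 19 libraries, as log2(CPM + 0.5) minus the mean of the controls of the same time. Columns are libraries, rows are genes ordered by role and separated by lines, and colours stop at 1.5 in both directions. Paics is blue in every mutant, tumour-free and tumour library, and so are several other rows, among them Utp20, Wdr12, Tfb2m and Gart. Others, such as Nop58, mix both colours among the mutants of 2 months. Control columns mix both colours in each row, since they are centred on their own mean.

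In all, 6 members were lower both in mutants of 2 months and in tumour-free tissue of 9 months, groups that share neither mutants nor controls: Npm1, Wdr12, Nop16, Paics, Tbrg4 and Ndufaf4. They are 54.5% of the 11 that fell at 2 months and 75% of the 8 that fell in tumour-free tissue. Over all genes the same shares were 64.1% and 75.2%, so members repeated about as often as other genes did.

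**Figure D2:**
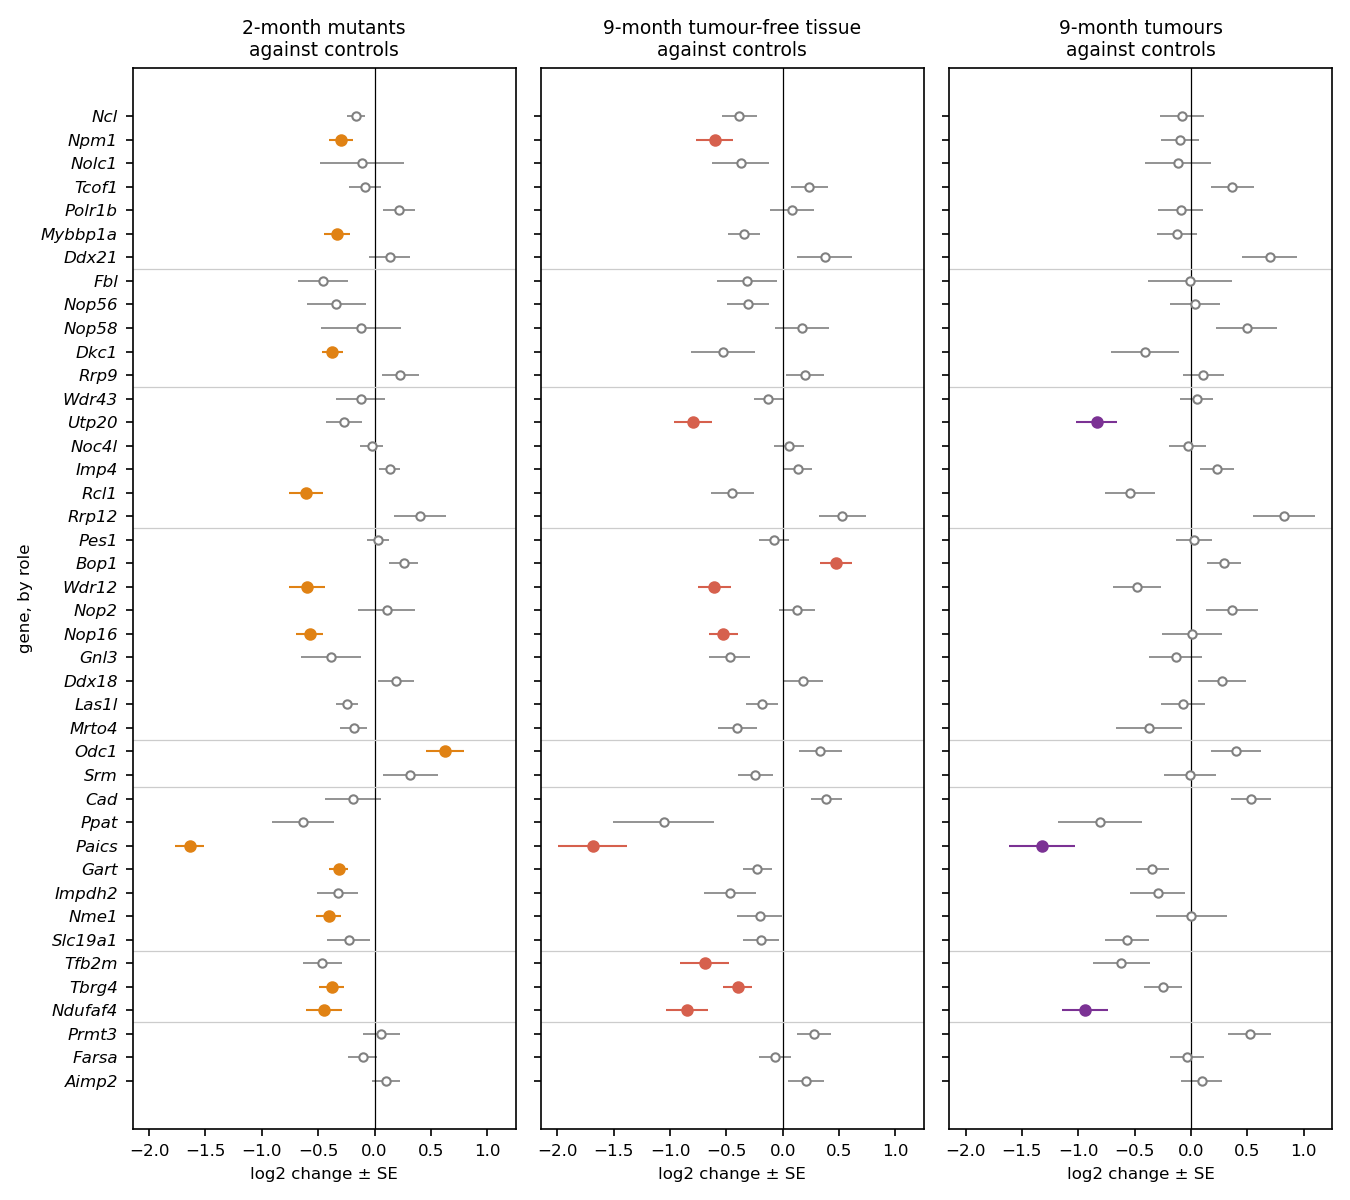
Fitted log2 change of each member, with its standard error, in mutants of 2 months (left), tumour-free tissue of 9 months (middle) and tumours of 9 months (right), each against controls of the same time. Filled points passed the test at an adjusted p under 0.05 and open grey points did not. Paics stands farthest to the left in each panel, at -1.64, -1.68 and -1.32.

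The 7 members of nucleotide synthesis and folate supply include the largest differences. Paics encodes the enzyme that carries out 2 neighbouring steps of purine synthesis. With Rcl1 it had the highest level per kilobase among the members, 81.7 CPM per kb in controls of 2 months. Length here is all annotated exons of a gene merged, not 1 transcript, so this ranking depends on the annotation. The controls of 2 months lay between 223.8 and 292.4 CPM with a median of 249.3 CPM, and the mutants at 88.5, 88.3 and 68.9 CPM. No mutant came near the lowest control. Paics fell to 0.321 of the control level (log2 change -1.64 ± 0.131 SE, adjusted p = 2.89e-06). At 9 months the controls had 252.5, 129.8 and 189.8 CPM, tumour-free tissue 83.5, 51.5 and 43.3 CPM, and tumours 70.8 and 71.7 CPM in mutant 1, 63.9 CPM in mutant 2 and 96.5 CPM in mutant 3. All 7 mutant libraries of 9 months lay below the lowest control. The fall was -1.68 ± 0.307 in tumour-free tissue (adjusted p = 0.00379) and -1.32 ± 0.29 in tumours (adjusted p = 0.0173). The call in tumours was lost without control 1 (-1.08, adjusted p = 0.0567), without control 3 (-1.34, adjusted p = 0.0634) and without all libraries numbered 1 (-1.02, adjusted p = 0.109), over a range of adjusted p from 0.00034 to 0.109.

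Paics lies on chromosome 5 at 76951307 to 76967509 on the plus strand (GENCODE M21, build GRCm38), and Ppat, which encodes the first committed enzyme of purine synthesis, at 76913249 to 76951578 on the minus strand, so that the pair overlap at their starts. The kit marks strand per the labels, but how strand was used in counting is not given in the sources used here. Other members also overlap a gene with reads on the opposite strand, among them Nop56 (Idh3b), Rrp9 (Parp3), Gnl3 (Pbrm1), Slc19a1 (Col18a1), Impdh2 (Ndufaf3) and Aimp2 (Eif2ak1). Ppat had 28.8 ± 9.4 CPM (SD, n = 6) in the 2-month controls and 18.5 ± 4.04 CPM (n = 3) in the mutants (log2 change -0.64 ± 0.277, adjusted p = 0.0881). Its 9-month controls spread from 17.0 to 49.4 CPM, and neither tumour-free tissue (-1.06 ± 0.447, adjusted p = 0.109) nor tumours (-0.81 ± 0.373, adjusted p = 0.155) passed the test.

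Gart, an enzyme of several steps of purine synthesis, had 42.1 to 48.2 CPM in controls of 2 months with a median of 45.2 CPM, and 37.1, 37.3 and 34.0 CPM in mutants. The groups did not overlap, and Gart fell by 0.32 ± 0.0818 on the log2 scale (adjusted p = 0.00895). Nme1, a nucleoside diphosphate kinase, had 25.3 to 31.5 CPM in those controls with a median of 28.0 CPM, and 18.6, 23.6 and 21.4 CPM in mutants (-0.41 ± 0.109, adjusted p = 0.0113). In tumours Nme1 spread from 19.2 CPM in mutant 2 to 48.5 CPM in the first tumour of mutant 1. Cad, which starts pyrimidine synthesis, did not pass in any of the 3 comparisons with controls, though at 9 months its levels did not overlap: 11.2 ± 0.375 CPM in controls, 14.7 ± 0.844 CPM in tumour-free tissue (0.39 ± 0.136, adjusted p = 0.0586) and 16.5 ± 2.5 CPM in tumours (0.53 ± 0.18, adjusted p = 0.068; n = 3 each). Impdh2, of guanine nucleotide synthesis, and Slc19a1, a folate carrier, did not pass either, with log2 changes from -0.57 (Slc19a1 in tumours, adjusted p = 0.0706) to -0.19. Impdh2 has a processed pseudogene with 185 counts over all libraries, against 1919 for the gene, so its counts may be split.

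**Figure D3:**
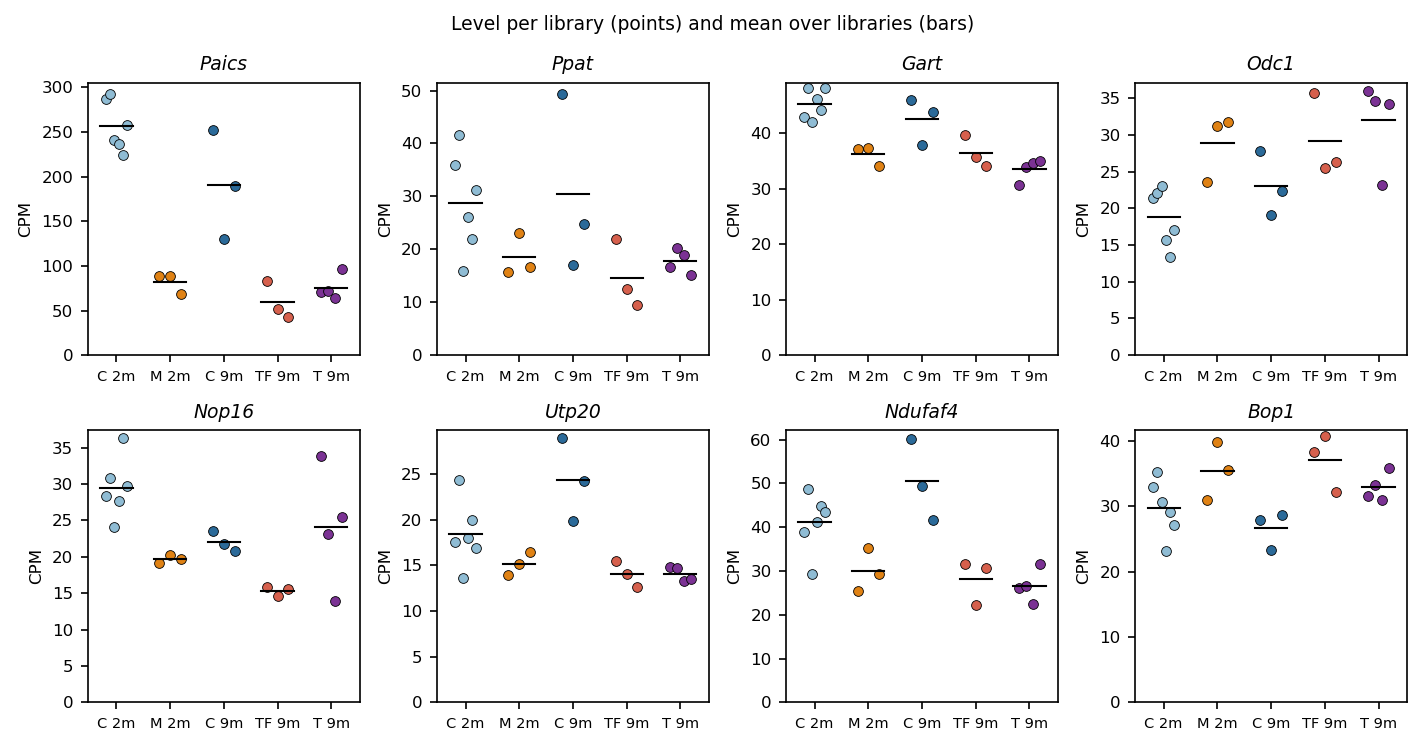
CPM of 8 members in each library (points), by group, with the mean over libraries as a bar: C 2m and M 2m are controls and mutants of 2 months, C 9m, TF 9m and T 9m are controls, tumour-free tissue and tumours of 9 months. Paics separates the groups with a wide gap at 2 months. At 9 months its mutant libraries (up to 96.5 CPM) lie below the controls by less than the controls spread (129.8 to 252.5 CPM). Odc1 at 2 months and Bop1 in tumour-free tissue also clear their controls by less than the spread within a group.

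Polyamine synthesis was the role in which a member rose at 2 months. Odc1, ornithine decarboxylase, the first enzyme of the pathway and a textbook Myc target, had 13.4 to 23.1 CPM in controls with a median of 19.2 CPM, and 23.6, 31.2 and 31.8 CPM in mutants. The lowest mutant was just above the highest control, and Odc1 rose 1.54-fold (0.63 ± 0.169, adjusted p = 0.0117); the call was lost without mutant 2 (adjusted p = 0.0503) or mutant 3 (adjusted p = 0.0598), over a range from 0.00138 to 0.101. At 9 months Odc1 had 23.1 ± 4.4 CPM in controls, 29.2 ± 5.66 CPM in tumour-free tissue (adjusted p = 0.207) and 30.9 ± 6.69 CPM in tumours (adjusted p = 0.223), with overlapping groups. Srm, spermidine synthase, the next enzyme, did not pass in any comparison with controls (log2 changes 0.32, -0.24 and -0.01).

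Of the 7 nucleolar scaffold and ribosomal RNA transcription members, 2 fell at 2 months, 1 in tumour-free tissue and none in tumours. Counts by role, here and below, stand beside 20.4% of all genes lower at 2 months, 16.8% in tumour-free tissue and 11.3% in tumours. No role was tested as a set. Npm1, nucleophosmin, an abundant nucleolar chaperone, had 46.4 to 60.6 CPM in controls of 2 months and 43.8, 43.4 and 41.7 CPM in mutants (-0.30 ± 0.108, adjusted p = 0.0432). At 9 months it had 48.4, 51.5 and 37.5 CPM in controls and 34.4, 26.6 and 29.8 CPM in tumour-free tissue (-0.60 ± 0.166, adjusted p = 0.0233). Tumours lay back among the controls, at 40.9 to 47.9 CPM (-0.10 ± 0.169, adjusted p = 0.698). Mybbp1a, a nucleolar Myb-binding protein, fell at 2 months (67.0 ± 7.59 to 53.0 ± 6.44 CPM, adjusted p = 0.0389), with 1 mutant above the lowest control; it overlaps Spns2 on the other strand. Npm1 no longer passed at 2 months without any 1 mutant or without control 4, 5 or 6 (adjusted p from 0.0704 to 0.131), nor in tumour-free tissue without control 1 or 2 or tumour-free library 2 or 3 (0.0535 to 0.111). Mybbp1a no longer passed without mutant 1 or 3 or control 4, 5 or 6 (0.0576 to 0.143). Ncl, nucleolin, the member with the most counts over all libraries, had 209.7 ± 9.27 CPM in controls and 186.4 ± 2.94 CPM in mutants of 2 months without overlap, yet did not pass (adjusted p = 0.123). Polr1b, a core subunit of RNA polymerase I, had 23.1 ± 3.92 and 26.8 ± 1.8 CPM (adjusted p = 0.233). Ddx21, a nucleolar RNA helicase, was above all controls in every tumour (46.5 to 51.8 CPM, against 40.7, 20.9 and 27.0 CPM) and did not pass (0.70 ± 0.246, adjusted p = 0.0768). The other members of this role, Nolc1 and Tcof1, had overlapping groups at 2 months and did not pass in any comparison.

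Among the 5 proteins of small nucleolar ribonucleoproteins only Dkc1, the pseudouridine synthase dyskerin, passed, and only at 2 months. It had 15.9 to 19.3 CPM in controls with a median of 18.4 CPM, and 13.2, 14.1 and 14.5 CPM in mutants (-0.37 ± 0.0947, adjusted p = 0.00852); it overlaps Mpp1 on the other strand. Fbl, fibrillarin, the ribosomal RNA methyltransferase, had the lowest CPM of the members in controls of 2 months, 4.33 ± 0.698 CPM against 3.15 ± 0.812 CPM in the mutants (adjusted p = 0.118). Its box C/D partners Nop56 and Nop58 varied more among the controls than between groups: Nop58 spread from 19.2 to 47.8 CPM in the 6 controls and from 20.2 to 41.4 CPM in the mutants. Rrp9 did not pass in any comparison.

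In small subunit assembly, 1 of 6 members fell in each comparison with controls. Of all genes, 20.4% fell at 2 months, 16.8% in tumour-free tissue and 11.3% in tumours. Rcl1, a factor of early precursor cleavage, had the highest level per kb of merged exons among the members (94.6 CPM per kb in controls of 2 months). Its controls of 2 months had 143.1 to 220.9 CPM with a median of 169.1 CPM, and its mutants 134.0, 113.7 and 102.6 CPM, below all of them (-0.61 ± 0.153, adjusted p = 0.00812). At 9 months it did not pass in tumour-free tissue (-0.45 ± 0.189, adjusted p = 0.104) or tumours (-0.54 ± 0.224, adjusted p = 0.117). Utp20, a large scaffold of the small subunit processome, overlapped at 2 months (adjusted p = 0.2) and fell at 9 months. Its controls had 29.0, 19.9 and 24.3 CPM, tumour-free tissue 15.5, 14.02 and 12.7 CPM, and tumours 14.8, 14.7, 13.3 and 13.6 CPM. The log2 changes were -0.80 ± 0.168 (adjusted p = 0.00741) and -0.84 ± 0.181 (adjusted p = 0.0165); the call in tumours was lost without control 1 (adjusted p = 0.055) or control 3 (adjusted p = 0.0691), over a range from 0.0013 to 0.141. Rrp12, a later export factor, lay in the other direction: 8.62, 6.17 and 5.25 CPM in controls of 9 months, 9.62, 10.2 and 9.18 CPM in tumour-free tissue and 15.5, 11.4, 8.88 and 13.7 CPM in tumours. Its change did not pass (0.53 ± 0.208, adjusted p = 0.0832, and 0.82 ± 0.275, adjusted p = 0.066). Wdr43, Noc4l and Imp4 did not pass in any comparison.

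Of the 9 large subunit members, 2 fell at 2 months, 2 fell and 1 rose in tumour-free tissue, and none passed in tumours. Beside them, 20.4% of all genes fell at 2 months, and 16.8% fell and 18.1% rose in tumour-free tissue. Nop16 had 24.1 to 36.3 CPM in controls of 2 months with a median of 29.1 CPM, and 19.2, 20.3 and 19.6 CPM in mutants (-0.58 ± 0.123, adjusted p = 0.00311). At 9 months it had 23.6, 21.8 and 20.8 CPM in controls and 15.9, 14.7 and 15.5 CPM in tumour-free tissue (-0.53 ± 0.126, adjusted p = 0.0132; 0.0802 and 0.0528 without tumour-free library 2 or 3). Tumours spread from 13.9 CPM in mutant 2 to 33.8 CPM in the first tumour of mutant 1, on both sides of the controls. Pes1, Bop1 and Wdr12 form the PeBoW complex, which processes the large subunit RNA, and their transcripts did not move together. Wdr12 had 11.3 to 19.3 CPM in controls of 2 months with a median of 15.8 CPM, and 8.80, 11.4 and 10.7 CPM in mutants, the highest of which reached the lowest control (-0.60 ± 0.162, adjusted p = 0.0121). At 9 months Wdr12 had 15.7, 13.2 and 14.1 CPM in controls and 9.14, 9.91 and 9.31 CPM in tumour-free tissue (-0.61 ± 0.143, adjusted p = 0.0124; 0.0502 and 0.0548 without tumour-free library 2 or 3, and 0.0532 without the libraries numbered 1). Bop1 rose in tumour-free tissue, from 27.9, 23.4 and 28.7 CPM in controls to 38.3, 40.7 and 32.2 CPM (0.47 ± 0.142, adjusted p = 0.0339). The rise of Bop1 no longer passed without control 1, 2 or 3 (adjusted p = 0.0613, 0.0814 and 0.0727) or without tumour-free library 1 or 2 (0.078 and 0.132), over a range from 0.0011 to 0.132. Pes1 stayed within 0.08 log2 units of the controls in all 3 comparisons (0.03, -0.08 and 0.03) and did not pass. Bop1 overlaps Mroh1, and Wdr12 overlaps Carf, on the other strand. Nop2, Gnl3, Ddx18, Las1l and Mrto4 did not pass in any comparison.

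All 3 mitochondrial members had negative log2 changes in each comparison with controls, and 2, 3 and 1 of them passed. The shares of all genes that were lower in these comparisons were 20.4%, 16.8% and 11.3%. Ndufaf4, an assembly factor of respiratory complex I, had 29.4 to 48.9 CPM in controls of 2 months and 25.5, 35.2 and 29.4 CPM in mutants, with overlap (-0.45 ± 0.158, adjusted p = 0.0391). At 9 months its controls had 60.3, 49.5 and 41.7 CPM, tumour-free tissue 31.6, 22.2 and 30.6 CPM and tumours 26.0, 26.7, 22.4 and 31.5 CPM, all below the controls (-0.85 ± 0.19, adjusted p = 0.00978, and -0.94 ± 0.204, adjusted p = 0.017). The 2-month call of Ndufaf4 was lost without mutant 1 or 3 (adjusted p = 0.133 and 0.117) or without any 1 of controls 1, 2, 4, 5 and 6 (0.0513 to 0.0694), and the tumour call without control 1 (0.0599) or control 2 (0.052). Tbrg4 had 37.2 to 47.9 CPM in controls of 2 months and 30.01, 34.1 and 32.9 CPM in mutants (-0.38 ± 0.111, adjusted p = 0.0171; 0.0607 without mutant 1). At 9 months it had 52.7, 41.99 and 45.6 CPM in controls and 35.0, 37.1 and 34.6 CPM in tumour-free tissue (-0.40 ± 0.125, adjusted p = 0.0386). Scaled by library size alone, Tbrg4 in tumour-free tissue turned to 0.04 (adjusted p = 0.821), and it was lost without any 1 tumour-free library (0.116 to 0.136) and without control 1 (0.112) or control 3 (0.093). Tfb2m, a mitochondrial transcription factor, passed in tumour-free tissue only (-0.69 ± 0.217, adjusted p = 0.039; -0.46 ± 0.173, adjusted p = 0.0505, at 2 months), and not without control 1, control 3 or any 1 tumour-free library (0.0508 to 0.141). The remaining members, the arginine methyltransferase Prmt3, the aminoacyl-tRNA synthetase gene Farsa, and Aimp2, did not pass in any comparison.

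Tumours were compared with tumour-free tissue of the same mutants to find what differs with tumour growth. No member passed (edgeR, n = 3 and 3), nor did limma voom or DESeq2 call one; 2 of all 14566 genes rose (0.0137%) and none fell (0%). Of 42 members 32 were higher in tumours, with a median log2 difference of 0.15 over members and 0.02 over all genes. One member, Npm1, had an unadjusted p under 0.05 (0.51 ± 0.148, adjusted p = 0.337), 2.38% of members against 9.98% of all genes. The groups did not overlap in 7 members. Of these, 6 were higher in tumours (Ncl, Npm1, Ddx21, Nop56, Wdr43 and Tbrg4, with 7.81% of all genes not overlapping in that direction) and Slc19a1 was lower (7.75% of all genes). With the animal as a block no member passed either. Against controls, 16 members did not overlap in tumours: 8 were higher (Tcof1, Ddx21, Imp4, Rrp12, Bop1, Ddx18, Cad and Prmt3, against 24.5% of all genes) and 8 lower (Utp20, Rcl1, Wdr12, Paics, Gart, Slc19a1, Tfb2m and Ndufaf4, against 21.5%). Those are 19% of members in each direction.

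Whether the difference from controls changed with time was tested directly. For tumour-free tissue of 9 months against mutants of 2 months no member passed (edgeR, DESeq2 and limma voom; 0.462% of all genes rose and 1.05% fell), and Utp20 alone had an unadjusted p under 0.05 (-0.52 ± 0.238, adjusted p = 0.37). For tumours against mutants of 2 months none passed with those tools (0.891% and 1.73% of all genes). Nop16, Tcof1 and Cad (0.62, 0.48 and 0.75) and Utp20 (-0.54) had an unadjusted p under 0.05, 9.52% of members against 16.9% of all genes, with adjusted p from 0.266 to 0.278. A Utp20 that passes at 9 months and not at 2 is thus not shown to have changed with time.

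Myc itself did not pass in any comparison as designed. Controls of 2 months had 4.65, 3.31, 6.34, 8.69, 10.4 and 12.2 CPM, and mutants 5.67, 8.39 and 14.5 CPM, within nearly the same range (log2 change 0.34 ± 0.403, adjusted p = 0.533). At 9 months controls had 19.04, 6.28 and 4.12 CPM, tumour-free tissue 38.1, 7.28 and 8.47 CPM, and tumours 49.2 and 37.7 CPM in mutant 1, 13.0 CPM in mutant 2 and 23.4 CPM in mutant 3. At 9 months the highest libraries of each group are those numbered 1, the same libraries that were high in immediate early genes, of which Myc is also one in many cells; the part of handling in the Myc level was not tested. The changes were 0.87 ± 0.862 (adjusted p = 0.482) in tumour-free tissue and 1.42 ± 0.675 (adjusted p = 0.172) in tumours. The sign in mutants of 2 months turned without mutant 3 (-0.11, adjusted p = 0.884) and in tumour-free tissue without library 1 (-0.31, adjusted p = 0.745), while without all libraries numbered 1 the tumours passed (1.78, adjusted p = 0.047, range 0.0349 to 0.425).

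Mycl and Mycn, the other Myc genes, were lower. Mycl fell from a mean of 6.74 CPM (range 2.62 to 9.38 CPM, n = 6) to 0.731 ± 0.341 CPM at 2 months (-3.16 ± 0.441, adjusted p = 0.000199), from 10.7 ± 3.84 to 0.685 ± 0.249 CPM in tumour-free tissue (-3.96 ± 0.372, adjusted p = 0.000136) and to 3.56 ± 1.89 CPM in tumours (-1.61 ± 0.458, adjusted p = 0.0409). Mycn fell from 1.24 ± 0.457 to 0.236 ± 0.197 CPM at 2 months (adjusted p = 0.00374) and from 2.06 ± 0.844 to 0.454 ± 0.197 CPM in tumour-free tissue (adjusted p = 0.00846), and did not pass in tumours (0.764 ± 0.281 CPM, adjusted p = 0.0671). In the list of 13 Myc family genes and partners, 2 of 12 tested rose and 3 fell at 2 months, in tumour-free tissue 1 of 13 rose and 3 fell, and for tumours 1 fell. Of all genes, 22.3% rose and 20.4% fell at 2 months, 18.1% and 16.8% in tumour-free tissue, and 13.8% and 11.3% in tumours. Mlx, a partner of the related Mondo factors, rose in mutants of 2 months and in tumour-free tissue (0.60 and 0.44).

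**Figure D4:**
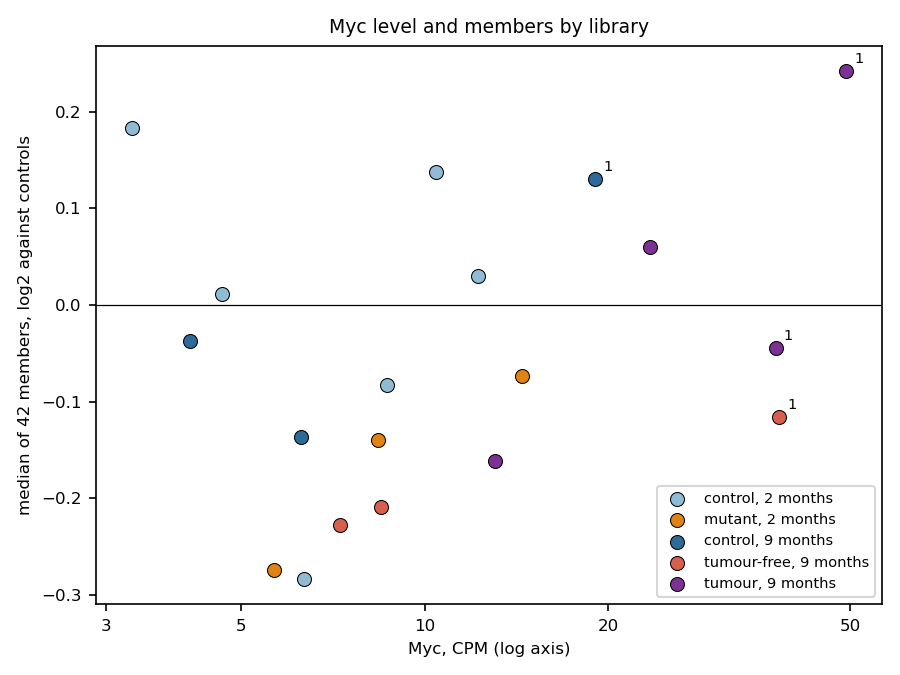
Each point is 1 library: Myc in CPM on a log axis, and the median over the 42 members of log2(CPM + 0.5) minus the mean of the controls of the same time. The 4 libraries from 9-month animals numbered 1 are marked 1. The 2 tumours of mutant 1 have Myc at 49.2 and 37.7 CPM and member medians of 0.24 and -0.045, and the 2-month control with the lowest Myc, 3.31 CPM, has the highest member median of its group, 0.18.

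Set beside Myc library by library, members gave a mixed picture. The median member lay at -0.27, -0.14 and -0.07 (log2, against controls of the same time) in mutants 1 to 3 of 2 months, at -0.12, -0.23 and -0.21 in tumour-free tissue, and at 0.24 and -0.045 in the 2 tumours of mutant 1, -0.16 in the tumour of mutant 2 and 0.06 in that of mutant 3. The first tumour of mutant 1, with the most Myc, had 22 of 42 members (52.4%) above all 9-month controls, against 38.2% of all genes. The second tumour of the same animal had 12 (28.6%, against 39.2% of all genes), the tumour of mutant 2 had 9 (21.4%, 39.8%) and that of mutant 3 had 16 (38.1%, 37.9%). Tumour-free tissue of mutant 1, with Myc at 38.1 CPM, had 10 (23.8%, 35.6%).

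Within groups, a slope of each gene on log2 Myc was fitted over the 18 samples that remain when the 2 tumours of mutant 1 are summed, with 12 residual degrees of freedom. They come from 15 animals, since tumour-free tissue and tumour of each 9-month mutant entered as separate samples. No member passed (edgeR and limma voom; 0.0198% of 15166 genes had a positive slope that passed and 0% a negative one). The slope was positive in 36 of 42 members, with a median of 0.08 log2 units per doubling of Myc against 0.002 over all genes, and single slopes from -0.08 (Fbl) to 0.24 (Gnl3). Gnl3, Npm1, Tfb2m and Ncl had an unadjusted p under 0.05 (adjusted p from 0.533 to 0.611), 4 members beside 8.01% of all genes. In the same edgeR fit the 15 immediate early genes had slopes from 0.19 (Klf6) to 2.26 (Egr1). Of these 1 passed, Egr2 (2.22 ± 0.31, adjusted p = 0.0223). Whether Myc and those genes share a cause was not tested. For the members the fit was repeated on fewer libraries. Without the 9-month libraries numbered 1 the slope was positive in 22 of 42 members with a median of 0.01, and in the 2-month libraries alone in 22 with a median of 0.01. In the 9-month libraries alone it was positive in 37 with a median of 0.07. Without control 2 of 2 months, the control with the least Myc, 39 were positive and 12 had an unadjusted p under 0.05, but none passed.

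The 6 controls of 2 months are the only group large enough for a correlation. They fall into 2 sets, controls 1 to 3 and controls 4 to 6. Chi-square per gene between counts of 2 libraries was 6.47 to 36.2 within sets and 39.9 to 49.8 across them. Myc lay at 3.31 to 6.34 CPM in the first set and 8.69 to 12.2 CPM in the second. Fbl and Imp4 also separate the sets. The permutation test treats all 6 as exchangeable, so Myc and set cannot be told apart. Between log2 Myc and each member, Pearson's r was positive in 16 of 42, with a median of -0.19 over members and -0.02 over all genes. By the exact two-sided permutation test over 720 orders, Fbl (r = 0.944, p = 0.00972, rho = 0.886, p = 0.0333) and Imp4 (r = -0.927, p = 0.0153, rho = -0.886, p = 0.0333) passed an unadjusted 0.05, 4.76% of members against 8.48% of all genes. Adjusted over all 13772 genes their exact p-values were 0.503 and 0.535. Without the 2 controls farthest from the median of Myc, numbers 2 and 6, r was 0.833 for Fbl and -0.839 for Imp4, and the median r over members moved to 0.37, with 31 of 42 positive, so the sign of the median rests on those 2 animals.

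Other genes of the same pathways moved in both directions. The counts for other ribosome biogenesis genes, and for the nucleotide, folate, polyamine and cell marker lists, stand beside these shares of all genes. At 2 months 22.3% were higher and 20.4% lower. The shares were 18.1% and 16.8% in tumour-free tissue, and 13.8% and 11.3% in tumours. No list was tested as a set. Of 18 RNA polymerase I subunits and factors 3 rose and 1 fell at 2 months, and 1 rose in tumour-free tissue and in tumours: Taf1c, of the selectivity factor that places the polymerase, rose in all 3 (1.04 ± 0.219, 1.00 ± 0.232 and 1.04 ± 0.273). Of 41 other small subunit factors 5 rose and 3 fell at 2 months, 2 and 4 in tumour-free tissue, and none and 2 in tumours. Of 44 other large subunit factors 2 rose and 3 fell, 3 and 5, and none and 2. Among 10 other snoRNP genes 1 fell at 2 months and in tumour-free tissue, Nop10, a partner of Dkc1 in the box H/ACA particle (-0.52 ± 0.0971 and -0.91 ± 0.204), and none passed in tumours. Among the small subunit factors the helicase gene Dhx37 rose in tumour-free tissue (1.11 ± 0.146, adjusted p = 0.000728).

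The nucleotide and folate lists held changes larger than that of Paics, the member that moved most. In the 13 other purine genes, 5 rose and 1 fell at 2 months, 3 and 2 in tumour-free tissue, and 2 and 1 in tumours. Those that rose include the salvage enzymes: Aprt, which recycles adenine, rose from 33.3 ± 2.95 to 102.3 ± 12 CPM at 2 months and from 21.7 ± 3.46 to 99.6 ± 14.5 CPM in tumour-free tissue and 118.8 ± 38.9 CPM in tumours (log2 changes 1.63, 2.19 and 2.44). Hprt, which recycles hypoxanthine and guanine, rose from 72.1 ± 3.48 to 173.1 ± 10.5 CPM at 2 months (1.27 ± 0.0737, adjusted p = 2.48e-07) and in tumour-free tissue (0.68 ± 0.146, adjusted p = 0.008).

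In the 16 other pyrimidine and deoxynucleotide genes, 3 rose and 4 fell at 2 months and in tumour-free tissue, and 2 rose and 4 fell in tumours. At 2 months 22.3% of all genes rose and 20.4% fell, and in tumour-free tissue 18.1% and 16.8%. Ctps, which makes CTP, rose 2.43 ± 0.212, 1.62 ± 0.174 and 2.41 ± 0.244 log2 units, and its paralog Ctps2 1.35 ± 0.127, 1.58 ± 0.13 and 1.68 ± 0.228. Tk1, thymidine kinase, fell from 20.4 ± 2.08 to 4.81 ± 0.352 CPM in tumours (-2.10 ± 0.183, adjusted p = 0.000783). Its levels were below all controls elsewhere too. Mutants of 2 months had 8.1, 4.9 and 4.4 CPM, against 12.4 to 27.0 CPM in controls. Tumour-free tissue had 11.0, 7.55 and 7.33 CPM, against 18.2 to 22.3 CPM in controls of 9 months. Of the folate one-carbon enzymes 2 rose and 2 fell at 2 months (of 9) and in tumour-free tissue (of 10), and 3 and 3 in tumours. Mthfd2, of the mitochondrial folate branch, rose (2.03 ± 0.313, 1.86 ± 0.249 and 2.89 ± 0.281), and Shmt1, of the cytosolic branch, fell (-1.02 ± 0.199, -1.19 ± 0.196 and -1.48 ± 0.2). Of 9 other polyamine genes 3 rose and 3 fell at 2 months, 3 and 2 in tumour-free tissue, and 1 and 1 in tumours: Smox, spermine oxidase, rose (1.38 ± 0.172, 1.83 ± 0.283 and 1.68 ± 0.196), and Paox, the peroxisomal polyamine oxidase, fell (-1.31 ± 0.259, -1.63 ± 0.179 and -2.91 ± 0.371).

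Markers of dividing cells rose in the same livers. At 2 months 7 of the 8 markers tested rose, and at 9 months 4 of 10 did so in tumour-free tissue against 6 of 10 for tumours, with none lower; their summed level was 6.22 to 9.84 CPM in controls and 14.7 to 30.2 CPM in mutants of 2 months, and 6.71 to 25.3 CPM in controls, 24.7 to 36.4 CPM in tumour-free tissue and 44.1 to 49.5 CPM in tumours of 9 months. Markers of other cells moved with the groups too. Of 5 cholangiocyte markers 2 rose at 2 months (Epcam and Spp1), 1 in tumour-free tissue (Epcam) and 1 in tumours (Sox9), while Krt7 and Krt19 did not pass in any of the 3. Their summed level, most of it Spp1, was 49.4 to 100.4 CPM in controls and 126.2 to 565 CPM in mutants of 2 months, and 55.0 to 122.3 CPM in controls, 71.2 to 206.7 CPM in tumour-free tissue and 63.0 to 3045 CPM in tumours of 9 months. Of 6 macrophage markers 1 rose at 2 months, 6 in tumour-free tissue (summed level 455.9 to 506.7 CPM, against 231.6 to 277.1 CPM in controls) and 3 in tumours. Of 5 endothelial markers 1 rose at 2 months, 1 rose and 2 fell in tumour-free tissue, and 2 rose in tumours (Pecam1 and Cdh5). Stellate and fibroblast markers rose in 3 of 6 at 2 months and 2 of 6 in tumour-free tissue and in tumours. The part of cell make-up in the members' changes was not tested.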

How the data were processed

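Poly(A)-selected RNA of mouse liver was sequenced from stranded libraries, per the labels' protocols. The authors deposited whole-number counts per gene and library, with no sign of normalization; the submitters' processing notes list RSEM, STAR 2.6.1a, DESeq2 1.22.2 and bedtools 2.27.1 with build GRCm38, and what each did is not given in the sources used here. If the deposited counts are RSEM estimates, they are rounded. Of 55421 genes 24684 had no count.

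Tests used edgeR 4.0.16 (R 4.3.3) and only the groups compared: expression filter, TMM scaling, robust quasi-likelihood test, Benjamini-Hochberg adjusted p under 0.05 over all genes tested. All 42 members passed the filter in every fit. Levels are TMM-scaled CPM, as mean ± SD over animals, and log2 changes carry a standard error (SE). For edgeR this SE is derived, as the absolute log2 change divided by the square root of the F statistic of the test. Log2 levels add 0.5 CPM. DESeq2 1.42.0, limma voom (limma 3.58.1), other scalings, no filter, a replicate block and leaving out libraries were alternatives. The scripts were tested on simulated data. No library pair of the same group agreed within sampling noise, and pairs across groups were not examined. Titles number the animals, and p-values of the comparisons with controls measure the spread between them. The fit of tumours against tumour-free tissue and the slope on Myc took both kinds of sample from the same mutants.

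The members and lists were chosen with earlier results of these data known. By rule, values per library are given for up to 8 members that passed with the smallest adjusted p in a comparison, for any that moved against the rest, and for Myc; other members by means, ranges and counts; up to 4 genes per other list and comparison. Tumour-free tissue and tumours of the same number come from the same animal (correlation of deviations 0.026 to 0.309); that fit had no block, and the animal as a block was an alternative. Positions come from GENCODE M21. Promoters come from RefSeq: 36 of 42 members were matched. Only 30 bases around each E-box are printed, since the full windows reach into transcripts; members without an E-box are not printed. Intervals cover counting error only and treat the chosen members as random draws, which they are not. Results for some genes of the other lists are not reported here.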

Additional observations from a re-analysis of the deposited data

Results flagged for a closer look

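Among the 6 controls of 2 months, control 3 stood apart as the lowest for Gnl3, a nucleolar GTP-binding protein, at 28.2 CPM against 54.0 to 63.9 CPM in the other 5. Its gap to the nearest control was 0.724 of the whole range, above the limit used for 6 samples. All 42 members and Myc were examined in this way, and chance alone flags about 1 in 20.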

How the results depend on the processing

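The median member minus the median gene can hardly move with the scaling, which shifts all genes about alike. Over all alternatives it ran from -0.246 to -0.158 at 2 months. In tumour-free tissue it ran from -0.275 (without control 2) to -0.123 (without control 1). In tumours it ran from -0.121 (no filter) to 0.049 (without the tumour of mutant 2). Scaled by library size alone, 9 members were higher and 1 lower in mutants of 2 months, 14 and 1 in tumour-free tissue, and 14 and 1 in tumours, since that scaling moves all genes (39.5% higher and 11.3% lower at 2 months); Tbrg4 in tumour-free tissue turned to 0.0371 (adjusted p = 0.821). With the replicate number as a block (replicate block), 0 members were higher and 1 lower at 2 months, 0 and 9 in tumour-free tissue, 0 and 3 in tumours, and 0 and 0 for tumours against tumour-free tissue. Outside the last comparison the samples share only a number: same-numbered deviations correlated at -0.265 to 0.286 at 2 months, -0.0634 to 0.365 in tumour-free tissue and -0.032 to 0.145 in tumours. Asking for at least 1.5-fold left 3 lower members at 2 months and 0 higher in tumour-free tissue. In tumours DESeq2 gave 1 higher, 1 fit over 5 groups 3 higher and 8 lower, 4 separate tumour libraries 3 higher, and leaving out the 9-month libraries numbered 1 gave 1 higher and 0 lower. The cause was not tested.

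Leaving out 1 replicate at a time gave 0 to 1 higher and 8 to 14 lower members at 2 months, 0 to 2 and 3 to 9 in tumour-free tissue, 0 to 1 and 0 to 3 in tumours, and 0 to 1 higher for tumours against the 2-month difference. The Myc change then ran from -0.1067 (without mutant 3) to 0.5931 at 2 months, from -0.3076 (without tumour-free library 1) to 1.7684 in tumour-free tissue, and from -0.6152 to 1.4439 for its change with time. With the block Myc passed in tumour-free tissue (0.7536, adjusted p = 0.026, range 0.026 to 0.745) and in tumours (1.5387, adjusted p = 0.0349). Paics had a negative change in every alternative and passed in all 16 at 2 months, all 14 for tumour-free tissue, and for tumours 14 of 17, where its log2 change ran from -1.5408 to -0.8665. Over all genes, calls went from 5883 to 3290 with the block at 2 months, from 3593 to between 1419 and 6612 in tumours, from 2 to between 0 and 442 for tumours against tumour-free tissue, from 223 to between 54 and 534 and from 385 to between 131 and 866 for the changes with time, and from 3 to between 0 and 29 for the slope on Myc.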

Other observations

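Among the 6 controls of 2 months, animals 1, 2 and 5 held the 3 highest values in 10 of the 42 members (23.8%), against 6.82% of 13773 genes; this was noticed after the values were seen and was not tested. The coefficient of variation among these controls had a median of 16.1% over members and 15.8% over all genes, and was highest in Nolc1 (45%) and Nop58 (41.7%), which both follow that order.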
